A study of Mus musculus with 6 samples.

Results

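Expression of 10 genes of activin and TGF-beta signalling was followed in mouse peritoneal macrophages with and without Tet2. They were chosen by name, with earlier results of these data known, among the 25206 gene-level features of the array. Each of the 10 matched exactly 1 feature. They encode the ligand subunits Inhba and Inhbb, the ligands Tgfb1, Tgfb2 and Tgfb3, the receptors Tgfbr1, Tgfbr2 and Acvr2a, and the inhibitors Fst and Smad7. The cells came from 3 mice of genotype Tet2-/- and 3 wild-type littermates, all on the C57BL/6J background, taken 4 days after aged 4% Brewer's thioglycollate (1 mL, i.p.), an irritant that draws macrophages into the cavity. After plating in RPMI with antibiotics and 10% FBS, every culture of both genotypes received LPS at 10 ng/mL, a bacterial ligand of toll-like receptor 4, and IFNg at 2 ng/mL for 10 h. No unstimulated culture is part of the comparison. Each sample gave 1 Affymetrix array. The sources used here do not give the Tet2 allele, nor the age or sex of the mice.

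Activins and TGF-betas are secreted dimers that bind a type II receptor kinase, which phosphorylates a type I receptor, which in turn phosphorylates SMAD transcription factors. Activin A, a dimer of the chain encoded by Inhba, is a product of macrophages activated through toll-like receptors, and follistatin, encoded by Fst, binds activins and keeps them from their receptors. TGF-betas are secreted in a latent complex and have to be released before they can signal. In macrophages TGF-beta is best known as a brake on inflammatory activation.

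The data bore most on a pair of ligand genes, Inhba and Tgfb2, whose close relatives Inhbb and Tgfb1 were also measured. Their promoters are shown so that the related genes can be compared. Each line gives the 250 bases before the RefSeq transcription start of 1 gene, 5′ to 3′ on the gene's strand, from mouse assembly GRCm38.p6, with CG dinucleotides in capitals, because Tet2 oxidises methylated cytosine, which in mammals lies mostly in CG. No methylation was measured here.
Inhba (chr13:16011601-16011850, plus strand): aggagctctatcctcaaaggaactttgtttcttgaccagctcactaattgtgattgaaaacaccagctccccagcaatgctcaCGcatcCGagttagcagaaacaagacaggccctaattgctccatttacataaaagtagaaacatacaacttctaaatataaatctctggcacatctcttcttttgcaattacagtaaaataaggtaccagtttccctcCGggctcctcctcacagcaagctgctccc
Inhbb (chr1:119422249-119422498, minus strand): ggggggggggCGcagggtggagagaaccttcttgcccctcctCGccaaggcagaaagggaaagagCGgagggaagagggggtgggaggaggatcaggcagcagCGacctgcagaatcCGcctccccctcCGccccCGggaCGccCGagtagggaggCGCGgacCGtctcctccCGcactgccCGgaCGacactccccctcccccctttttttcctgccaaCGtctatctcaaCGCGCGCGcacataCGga
Tgfb2 (chr1:186705990-186706239, minus strand): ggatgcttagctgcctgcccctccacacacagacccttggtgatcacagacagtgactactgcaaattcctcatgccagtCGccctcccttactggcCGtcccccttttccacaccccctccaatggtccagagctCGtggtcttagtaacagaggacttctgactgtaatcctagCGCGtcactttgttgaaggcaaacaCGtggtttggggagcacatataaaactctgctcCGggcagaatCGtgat
Tgfb1 (chr7:25686752-25687001, plus strand): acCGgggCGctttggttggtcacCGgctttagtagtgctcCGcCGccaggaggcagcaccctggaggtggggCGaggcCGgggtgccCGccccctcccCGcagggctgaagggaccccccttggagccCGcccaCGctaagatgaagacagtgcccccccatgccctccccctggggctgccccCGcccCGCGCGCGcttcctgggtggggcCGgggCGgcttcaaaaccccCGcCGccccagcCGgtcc
The Inhba window held 3 CG dinucleotides and the Tgfb2 window 8, against 21 in Inhbb and 21 in Tgfb1. These 4 genes were picked by the results below, so the contrast between them is no test. Of the other genes with a window, Tgfbr1 held 29 and 3 at its listed starts, Tgfbr2 12 and Acvr2a 49. These receptor genes did not pass the threshold given below. The median over 32851 RefSeq promoter windows of this length was 6 (quartiles 2 and 16). As few CG dinucleotides as in Inhba, or fewer, were found in 37.8% of all windows, as few as in Tgfb2 in 59.7%, and as few as in Inhbb and Tgfb1 in 85.2%. Of 7 motifs searched on both strands, none of which contains another except that GTCTAGAC holds GTCT, the letters TATAAA occurred in Tgfb2, starting 31 bases before the transcription start, and in Inhba, 91 bases before it, but not in the Inhbb and Tgfb1 windows. They occur in 12.4% of all windows. The letters GTCT, bound by SMAD proteins, occurred once or more in each of the 4 windows and in 82.9% of all windows. The longer SMAD palindrome GTCTAGAC (0.167% of all windows) was in none of the 4, and the E-box CACGTG (6.02%) was in Tgfb2, 51 bases before the start. Neither the AP-1 letters TGAGTCA (4.46% of all windows) nor the CRE letters TGACGTCA (1.55%) were in any of the 4, and an NF-kB motif (7.25%) was in Tgfb1 alone of the 4. These matches describe the letters only.

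Of the 10 genes, Inhba and Tgfb2 were higher in the Tet2-deficient macrophages, 0 passed as lower, and 8 did not pass the threshold, a limma p adjusted over all features of 0.05. Over all features 0.952% passed it, 0.647% as higher and 0.305% as lower. In 7 of the 10 the 3 arrays of one genotype lay wholly above or below those of the other, against 22% of all features. Tet2-deficient arrays were the higher ones for 6 of these (9.74% of all features) and the lower ones for 1 (12.2%). The median log2 change of the 10 genes, Tet2-deficient minus wild-type, was 0.27, and that of all features was -0.04. The genes were chosen with earlier results of these data known, so the shares over all features stand beside these counts as description only. When 1 array at a time was left out, the number passing was 0 to 2, and it was 0 without Tet2-deficient replicate 3 alone.

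**Figure D1:**
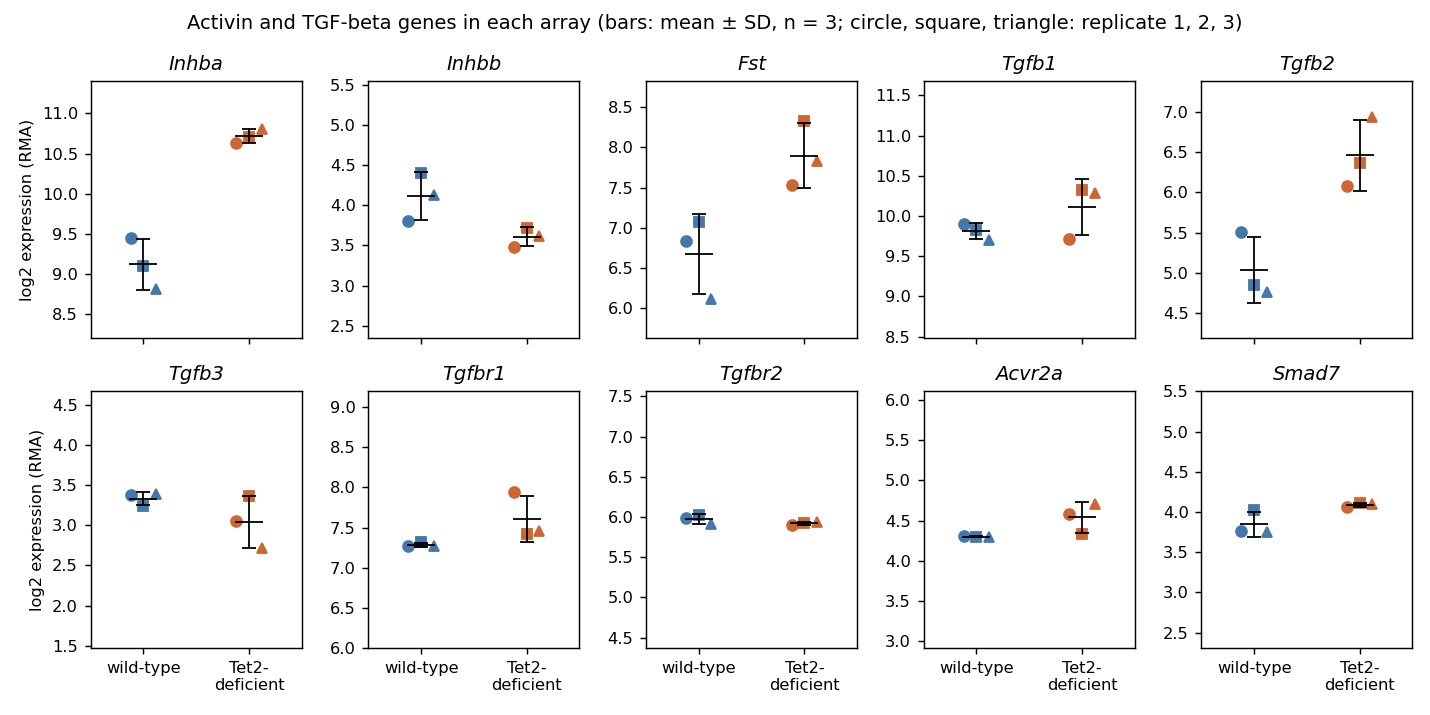
Log2 expression of the 10 genes in each of the 6 arrays, with the mean and SD of 3 arrays per genotype; circles, squares and triangles are replicates 1, 2 and 3. Each panel spans the same height on the log2 scale, so the wide gaps of Inhba (9.12 against 10.72) and Tgfb2 (5.04 against 6.46) can be set beside the overlapping values of Tgfb1, Tgfb3 and Tgfbr2.

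Among the activin ligand genes, Inhba rose. Its log2 level was 10.63, 10.71 and 10.80 in the Tet2-deficient arrays and 9.45, 9.10 and 8.81 in wild-type arrays. The groups lay far apart, and the spread was 0.09 (SD, n = 3) among Tet2-deficient and 0.32 (SD, n = 3) among wild-type arrays. The change was 3.02-fold (95% confidence interval 2.33 to 3.91), or 1.59 ± 0.17 (SE) on the log2 scale, with a limma adjusted p = 0.00629. This placed Inhba 14th of 25206 features by p. Leaving out Tet2-deficient replicate 3 took it just past the threshold (adjusted p = 0.0529), while in the other 5 such fits it stayed under it (lowest 0.00294).

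Inhbb encodes the chain of activin B, which shares receptors with activin A. Its log2 level was 3.48, 3.72 and 3.62 in the Tet2-deficient arrays and 3.81, 4.40 and 4.13 in wild-type arrays. Here the Tet2-deficient arrays were the lower ones and the groups did not overlap, but the levels lay close to the array medians of 3.47 to 3.66, where changes can be understated. The log2 change of -0.51 (95% confidence interval -0.87 to -0.14) did not pass (limma adjusted p = 0.171). The difference Inhba minus Inhbb within an array was 7.15, 7.00 and 7.18 in the Tet2-deficient arrays and 5.65, 4.70 and 4.68 in wild-type arrays. It thus widened by 2.10 on the log2 scale, with no overlap. A two-sided exact permutation test gave p = 0.1, the smallest that 3 arrays against 3 can give, and 0.125 after Benjamini-Hochberg adjustment over 5 such differences.

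Fst, the gene of the activin antagonist follistatin, had log2 levels of 7.53, 8.33 and 7.83 in the Tet2-deficient arrays and 6.84, 7.08 and 6.12 in wild-type arrays. The Tet2-deficient arrays were all higher, with a wide spread inside each group (SD 0.41 and 0.50, n = 3 each). The estimated change was 2.33-fold (95% confidence interval 1.54 to 3.53, log2 change 1.22 ± 0.27), which did not pass the threshold (limma adjusted p = 0.0696). It passed in 5 of 12 other ways of processing, with the lowest adjusted p = 0.0308, and in none of the 6 fits that left out an array (0.0793 to 0.198). The difference Inhba minus Fst within an array was 3.10, 2.38 and 2.98 in the Tet2-deficient arrays and 2.62, 2.02 and 2.70 in wild-type arrays. These overlapped, and the mean differences of 2.82 and 2.45 were not distinguished by the two-sided exact permutation test (p = 0.3). The level of Fst was highest in replicate 2 of each genotype. The summed level of 13 markers of mesothelium and fibroblasts, cells that also make follistatin, was highest in the same arrays, at log2 8.17, 9.12 and 7.83 in the Tet2-deficient and 7.68, 8.13 and 7.70 in the wild-type replicates 1, 2 and 3. Tet2-deficient replicate 3 had the lowest sum of its group but not the lowest Fst. Of the 13 markers, 6 lay below the median feature, and they did not share 1 order. In the Tet2-deficient replicates 1, 2 and 3, Col1a1 was at 5.58, 7.37 and 5.26, and Krt8 at 4.42, 4.30 and 4.54. The part of these cells in the result was not tested.

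Acvr2a encodes a type II receptor of activins. Its log2 level was 4.58, 4.33 and 4.71 in the Tet2-deficient arrays and 4.31, 4.30 and 4.29 in wild-type arrays. The wild-type arrays were almost equal and all lay below the Tet2-deficient ones, replicate 2 by a narrow margin. The log2 change of 0.24 (95% confidence interval -0.05 to 0.53) did not pass (limma adjusted p = 0.409).

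Of the TGF-beta ligand genes, Tgfb2 rose. Its log2 level was 6.07, 6.37 and 6.94 in the Tet2-deficient arrays and 5.51, 4.85 and 4.76 in wild-type arrays. The lowest Tet2-deficient array lay above the highest wild-type one, with spreads of 0.44 and 0.41 (SD, n = 3 each). The change was 2.68-fold (95% confidence interval 1.81 to 3.97, log2 change 1.42 ± 0.25), with a limma adjusted p = 0.0382. It passed without wild-type replicate 1 (0.0270) and lost its call without any 1 of the other 5 arrays (0.0765 to 0.157).

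Tgfb2 is also known as a gene of resident peritoneal macrophages. Of 13 measured markers of those cells, Prg4 (log2 change 2.46, limma adjusted p = 0.0152), F5 (1.83, adjusted p = 0.0152) and Timd4 (1.19, adjusted p = 0.0219) rose, 0 fell and 10 did not pass. Of the 13, 11 had a log2 change above 0 and 2 below, with a median of 0.37. Without overlap of the groups, 6 were higher and 1 lower, against 9.74% and 12.2% of all features. By limma 7 had an unadjusted p under 0.05, which 16% of all features reached. The summed log2 level of the 13 was 11.08 to 11.55 in the Tet2-deficient arrays and 10.52 to 10.79 in wild-type arrays, with no overlap. Wild-type replicate 1 was the highest of its group for this sum as for Tgfb2 and Inhba. In the Tet2-deficient group the sum was highest in replicate 2, but Tgfb2 and Inhba were highest in replicate 3. Gata6, the transcription factor that defines these cells, lay between 3.51 and 4.42 in the 6 arrays (log2 change 0.23, adjusted p = 0.657). Its lower values lay close to the array medians of 3.47 to 3.66, where changes can be understated. The part of resident macrophages in the changes of Inhba and Tgfb2 was not tested, and in bulk RNA more cells of a type and more RNA per cell cannot be told apart. F5 and Prg4 lost their calls without Tet2-deficient replicate 3 or wild-type replicate 3 (largest adjusted p = 0.0740 for either), and Timd4 without any 1 array other than wild-type replicate 1 (largest 0.108).

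Tgfb1, the main TGF-beta of blood cells, had log2 levels of 9.72, 10.33 and 10.29 in the Tet2-deficient arrays and 9.90, 9.83 and 9.70 in wild-type arrays. Tet2-deficient replicate 1 lay among the wild-type arrays and the other two above them. The log2 change of 0.30 (95% confidence interval -0.09 to 0.69) did not pass (limma adjusted p = 0.445). Tgfb3, at 3.05, 3.36 and 2.72 against 3.37, 3.23 and 3.39, was the only gene of the 10 whose mean lay below the median feature, and the groups overlapped (log2 change -0.29, 95% confidence interval -0.66 to 0.09, adjusted p = 0.449). Within arrays, Tgfb2 minus Tgfb1 was -3.64, -3.96 and -3.35 in the Tet2-deficient arrays and -4.39, -4.98 and -4.94 in wild-type arrays. Tgfb2 thus gained 1.12 on the log2 scale on Tgfb1 without overlap (two-sided exact permutation p = 0.1, adjusted 0.125).

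The gene of the type I TGF-beta receptor, Tgfbr1, had log2 levels of 7.94, 7.42 and 7.46 in the Tet2-deficient arrays and 7.27, 7.32 and 7.27 in wild-type arrays. All Tet2-deficient arrays were higher, replicate 1 the most, yet the log2 change of 0.32 (95% confidence interval -0.02 to 0.67) did not pass (limma adjusted p = 0.344). Tgfbr2, the type II receptor, was the steadiest of the 10, at 5.90, 5.93 and 5.94 against 5.98, 6.03 and 5.92. The groups overlapped, and the ratio of Tet2-deficient to wild-type was 0.963 (95% confidence interval 0.811 to 1.14, limma adjusted p = 0.854), an interval that does not reach the fold change of Inhba or Tgfb2. Smad7, the inhibitory SMAD that blocks type I receptors, was at 4.06, 4.11 and 4.10 against 3.76, 4.02 and 3.75. The Tet2-deficient arrays were all slightly higher (log2 change 0.25, 95% confidence interval -0.03 to 0.52, adjusted p = 0.369).

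**Figure D2:**
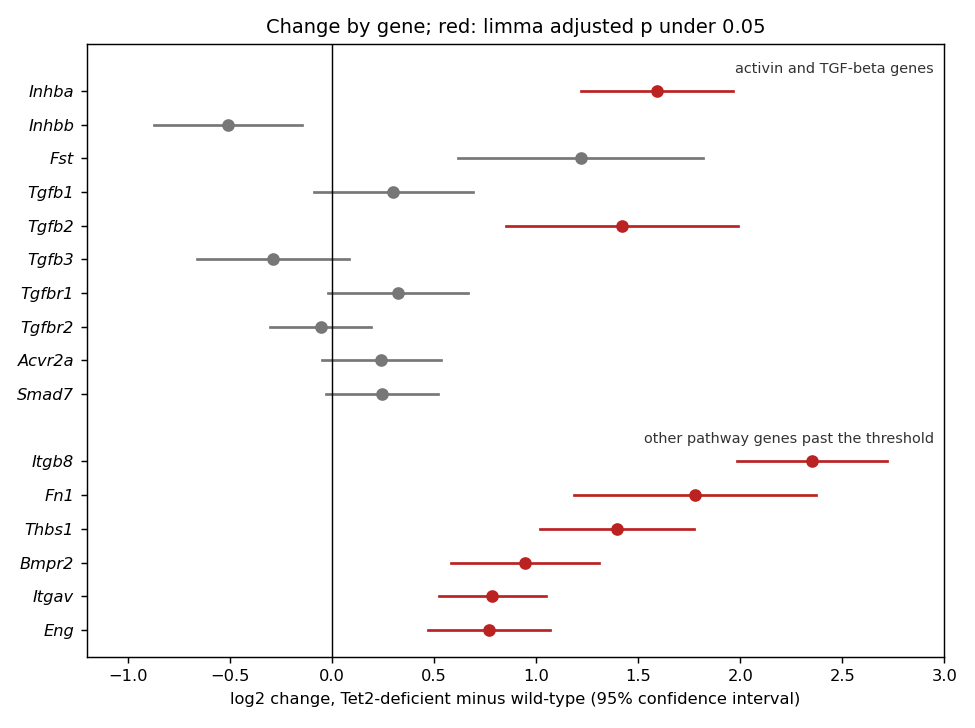
Log2 change, Tet2-deficient minus wild-type, with its 95% confidence interval for the 10 genes and for the 6 other pathway genes past the threshold (red: limma adjusted p under 0.05, n = 3 arrays per group). The interval of Fst (0.62 to 1.82) lies above 0 although its adjusted p of 0.0696 does not pass.

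The rest of the pathway was read from 6 lists ordered by role, with 73 of 76 genes measured. Of these 73, 6 rose, 0 fell and 67 did not pass, with a median log2 change of 0.09. Against these and the counts by list that follow stand 0.647% of all features called as higher and 0.305% as lower. The lists, too, were chosen with earlier results of these data known. When 1 array was left out the number passing was 1 to 4, lowest without Tet2-deficient replicate 1 or 3. The 6 came from 3 of the lists, namely the activation of latent TGF-beta, the receptors and the readout genes.

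Of 13 genes of TGF-beta latency and activation 3 rose and 0 fell. The integrin subunits Itgb8 and Itgav together form a receptor that releases TGF-beta from its latent complex. Itgb8 was at 7.11, 6.90 and 7.27 in the Tet2-deficient arrays against 5.02, 4.71 and 4.49 in wild-type arrays, a 5.11-fold change (limma adjusted p = 9.20e-04). Itgav was at 8.43, 8.47 and 8.55 against 7.71, 7.79 and 7.59, a 1.72-fold change (adjusted p = 0.0219). Thbs1, encoding thrombospondin 1, a matrix protein that can activate latent TGF-beta, was at 11.15, 11.20 and 11.35 against 10.06, 9.98 and 9.47, a 2.63-fold change (adjusted p = 0.0119). In none of these did the groups overlap. Itgb8 kept its call whichever array was left out, Thbs1 lost it without Tet2-deficient replicate 1 or 3 (largest adjusted p = 0.0669), and Itgav lost it in all 6 such fits (0.0518 to 0.111). The median log2 change of this list was 0.18.

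Among 10 other receptors and co-receptors 2 rose and 0 fell, with a median log2 change of 0.15. Bmpr2, a type II receptor for BMPs that activins can also use, was at 8.97, 8.60 and 9.02 against 8.16, 7.74 and 7.84 (1.93-fold, limma adjusted p = 0.0348). Eng, encoding the TGF-beta co-receptor endoglin, was at 8.36, 8.48 and 8.38 against 7.73, 7.77 and 7.40 (1.71-fold, adjusted p = 0.0362). The Tet2-deficient arrays were the higher ones throughout. Bmpr2 lost its call without Tet2-deficient replicate 1 or 3 or wild-type replicate 2 or 3 (largest adjusted p = 0.147), and Eng without any 1 of the 6 arrays (0.0603 to 0.138) and with cyclic loess between arrays (0.0534).

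**Figure D3:**
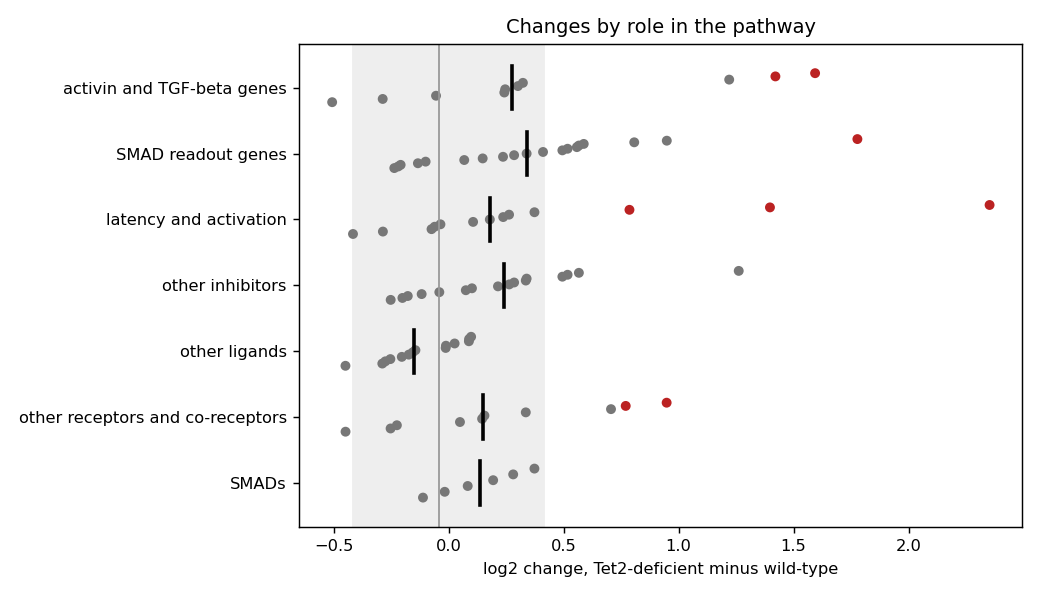
Log2 change of each gene by role (points; red: limma adjusted p under 0.05), with the median of each list (black bar). The grey band spans the 5th to 95th percentile of all features (-0.41 to 0.41) and the grey line is their median; every red point lies to the right of the band.

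Other ligands (14 measured), the receptor-activated and common SMADs (6) and other inhibitors (16) had 0 genes past the threshold by limma, with 1, 1 and 8 at an unadjusted p under 0.05, which 16% of all features reached. Only 3 of the 14 ligand genes had a mean level above the median feature. The others, Lefty1 among them, are not shown to be above background, and their changes can be understated. The ligand list had a median log2 change of -0.15. Its genes with the smallest p were Lefty1, an antagonist of nodal signalling (-0.45, adjusted p = 0.168), and Bmp7, a bone morphogenetic protein (-0.28, adjusted p = 0.325). Of the SMADs, the signal carriers Smad3 (0.37, adjusted p = 0.215) and Smad2 (0.28, adjusted p = 0.330) had the smallest p, and the median was 0.14. Of the 16 other inhibitors, 8 were higher and 2 lower with no overlap between the groups (9.74% and 12.2% of all features), with a median of 0.24. The smallest p were those of Dcn, encoding the TGF-beta-binding proteoglycan decorin (1.26, adjusted p = 0.0715), and Skil, a co-repressor of SMADs (0.57, adjusted p = 0.0885). Dcn is also a fibroblast marker. Like Fst it was highest in replicate 2 of each genotype, at 6.18, 6.88 and 5.57 in the Tet2-deficient and 5.02, 5.12 and 4.71 in wild-type arrays.

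Of 19 genes commonly used as readouts of SMAD signalling 1 rose and 0 fell, with a median log2 change of 0.34. The riser was Fn1, encoding the matrix protein fibronectin, at 10.49, 11.19 and 10.81 against 9.59, 9.04 and 8.53 (3.43-fold, limma adjusted p = 0.0219), and it lost its call without any 1 array other than wild-type replicate 1 (0.0110 to 0.101 over the 6 fits). Tgfbi, a matrix protein named for its induction by TGF-beta, was at 9.51, 8.79 and 8.95 against 8.03, 8.25 and 8.12. The groups did not overlap, but the log2 change of 0.95 fell just short (adjusted p = 0.0516). In 9 of the 19 the Tet2-deficient arrays were the higher ones without overlap and in 2 the lower ones, against 9.74% and 12.2% of all features. Among the 9 are Smad6, Skil, Pmepa1, Ski and Tgif1, which are also counted among the inhibitors above, so the lists are not separate. The readout list did not move as 1 block: Id1 (-0.13, adjusted p = 0.783) and Ccn2 (0.07, adjusted p = 0.934) had overlapping groups. Its genes Col1a1 (0.59), Col1a2 (0.81) and Col3a1 (0.41) are also fibroblast markers. Their groups overlapped, and like Dcn they were highest in replicate 2 of each genotype. The part of fibroblasts in the readout list was not tested.

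**Figure D4:**
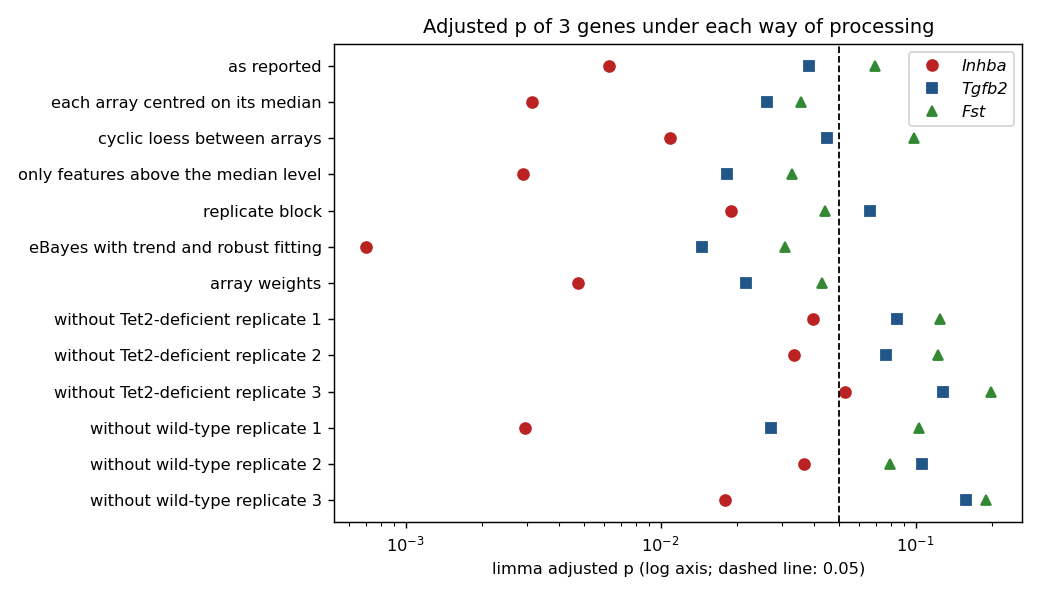
Limma adjusted p of Inhba, Tgfb2 and Fst as reported and under each of 12 alternatives, on a log axis (dashed line: 0.05). Inhba crosses the line once, at 0.0529 without Tet2-deficient replicate 3, whereas Tgfb2 and Fst lie on either side of it.

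As for the arrays as a whole, 240 of 25206 features passed (163 higher, 77 lower). The Tet2 feature itself showed no fall with the label Tet2-deficient, at 5.55, 5.25 and 5.75 against 5.40, 5.07 and 5.10 (log2 change 0.32, limma adjusted p = 0.365). The sources used here do not say where its probes lie relative to the deletion, so this checks nothing and every direction rests on the labels. Of 7 general macrophage markers, all above the median feature, Cd14 (0.97, adjusted p = 0.0152) and Itgam (0.97, adjusted p = 0.0211) rose, while Cd68 had a log2 change of 0.0017. The change was above 0 in 5 of the 7 and below 0 in 2, namely Fcgr1 (-0.51, adjusted p = 0.230) and Mertk (-0.10, adjusted p = 0.746). Cd14 lost its call without Tet2-deficient replicate 1 or 3 or wild-type replicate 3 (largest adjusted p = 0.0783), and Itgam without any 1 array other than wild-type replicate 1 (largest 0.0941). The summed log2 level of the 7 markers was 12.97 to 13.04 in Tet2-deficient and 12.66 to 12.71 in wild-type arrays. In the lists of monocytes, neutrophils, mesothelium and fibroblasts, B cells, T and NK cells, mast cells and eosinophils, dendritic cells, and platelets 0 genes passed by limma (1, 0, 1, 0, 1, 0, 0 and 0 at an unadjusted p under 0.05) and the summed levels overlapped between genotypes. The monocyte gene was Ly6c2, at 8.21, 7.40 and 7.74 in the Tet2-deficient arrays against 7.01, 6.59 and 6.73. Its log2 change of 1.01, without overlap, fell short of the threshold (limma adjusted p = 0.0558), and its part in the results was not tested. Of the 7 measured monocyte markers, 3 had a log2 change above 0 and 4 below, with a median of -0.06. Of them 0 lay below the median feature, where changes can be understated. Below it lay 7 of 9 neutrophil, 6 of 13 mesothelium and fibroblast and 3 of 5 B cell markers. So did 5 of 6 T and NK cell and 7 of 8 mast cell and eosinophil markers. Among dendritic cell markers it was 5 of 6, and among platelet markers 3 of 4. Lists with most markers below it say little on whether those cells differed. The brightest markers of the lists from monocytes to platelets were Ly6c2, S100a8, Col1a1, Cd79a, Klrb1c, Siglecf, Ccr7 and Gp9, and that of the resident macrophage list was Cd9.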

How the data were processed

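Each of 6 samples gave 1 array. The values are log2 expression, deposited by the authors after RMA (background correction, normalization between arrays, summary over probes) with affy 1.36.1, per the submitters' processing notes. The sources used here give no array type, probe set definition, genome build or filter. Since RMA equalises the distribution of the arrays, a shift common to all genes is lost, and changes at low levels are understated. Symbols came from the platform annotation (23185 of 25206 features; the remaining 2021 entered the fit unnamed). Of 165 listed genes 156 were measured. The other 9 are not analysed here.

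Groups follow the sample titles, which call the arrays of a group biological replicates. The genotypes were compared on every feature with limma 3.58.1 (lmFit, eBayes; R 4.3.3), as Tet2-deficient minus wild-type, two-sided and Benjamini-Hochberg adjusted, with a threshold of 0.05 and a prior of 5.31 degrees of freedom. No array was a copy of another (at least 99.7% of features differed in each pair). Array numbers limit the precision. Marker levels were summed on the linear scale and given as log2. The fit was tested on simulated data. The members, the lists and the rule for named genes were chosen with earlier results of these data known: all members, Tet2, list genes past the threshold (or the 2 smallest p), and the brightest marker of each cell type. Id1, Ccn2, Gata6, Fcgr1, Mertk and Krt8 were named after their values were seen. Alternatives were centring on array medians, cyclic loess, bright features only, a replicate block, a trended and robust prior, array weights and each array left out.
Promoter sequences are those of RefSeq, and 7 of the 10 genes had one. Fst, Tgfb3 and Smad7 had none in the set used.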

Additional observations from a re-analysis of the deposited data

How the results depend on the processing

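Of 119 values of the 10 genes under 12 alternatives, 118 kept their sign. The exception was Tgfbr2, with a log2 change of 0.011 with arrays centred on their medians. Over all features the number passing was 846 with features above the median level only, 498 with array weights, 814 with eBayes set to trend and robust, and 11 to 155 with 1 array left out. Of these calls 67.9% were higher as deposited (163 of 240) and 78.8% after centring on array medians (215 of 273). Among the 10 genes 0 to 2 passed with 1 array left out and 2 or 3 under the other alternatives. Of the other pathway genes 10 passed with features above the median level only and 1 to 4 with 1 array left out. The cause of these shifts was not tested, beyond the fewer features tested or fewer arrays fitted. Tgfb3 was below the level filter, so that alternative gave no value for it.

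Same-numbered arrays deviated together only weakly (correlation 0.0248 to 0.191), and 4 of 6 arrays deviated most like their own number. These values do not settle whether the number pairs the arrays. With the replicate number as a block 230 features, 2 of the 10 genes (Inhba and Fst, the latter at adjusted p = 0.0442, with Tgfb2 at 0.0659) and 7 other pathway genes passed. The 5 differences between members kept their direction under cyclic loess and in every fit with 1 array left out: Inhba minus Inhbb 1.94 to 2.42, Inhba minus Fst 0.16 to 0.59, Tgfb2 minus Tgfb1 0.97 to 1.31, Tgfb3 minus Tgfb1 -0.79 to -0.34 and Tgfbr2 minus Tgfbr1 -0.47 to -0.20. With 3 arrays per group the intervals of most members span a range of over 0.5 on the log2 scale, so small changes could not be resolved.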

Other observations

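The genes counted both as inhibitors and as readouts of SMAD signalling, Smad6, Skil, Pmepa1, Ski and Tgif1, are negative regulators that the pathway is known to induce. They were singled out after their values were seen. In all 5 the Tet2-deficient arrays lay above the wild-type ones, against 9.74% of all features. Their log2 changes were 0.49 for Smad6, 0.57 for Skil, 0.52 for Pmepa1, 0.28 for Ski and 0.34 for Tgif1, and none passed (limma adjusted p = 0.0885 to 0.298). Smad7, the inhibitor that is a close relative of Smad6, had 0.25.

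The other differences within arrays were between Tgfb3 and Tgfb1 and between the receptor genes. Tgfb3 minus Tgfb1 was -6.66, -6.97 and -7.57 in the Tet2-deficient arrays and -6.53, -6.59 and -6.32 in wild-type arrays (two-sided exact permutation p = 0.1, adjusted 0.125). Tgfbr2 minus Tgfbr1 was -2.04, -1.49 and -1.53 against -1.29, -1.28 and -1.35 (exact p = 0.1, adjusted 0.125). The level of Tgfb3 lay below the median feature and is not shown to be above background, and with cyclic loess between arrays the groups overlapped for Tgfb3 minus Tgfb1 (exact p = 0.2), so nothing is read from that difference. Tgfbr2 minus Tgfbr1 did not overlap between genotypes. The promoter windows of the receptor genes held 49 CG dinucleotides in Acvr2a (as few or fewer in 99.9% of all windows), 29 and 3 at the starts listed for Tgfbr1, and 12 in Tgfbr2.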
